A study of Mus musculus with 6 samples.

Results

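Circular RNAs (circRNAs) of 4 genes, Ppm1a, Ppp2r3a, Akap11 and Plcl2, were followed in neutrophils of diabetic (db) and non-diabetic (non-db) mice. These genes encode a protein phosphatase, a phosphatase regulatory subunit and scaffolds that bind phosphatases. They were taken from the study's lists of circRNAs with mean signals more than 1.5-fold apart between the groups, which hold 453 circRNAs of 391 named host genes. Each of the 4 genes had 1 circRNA there, and all 4 circRNAs were on the list of 247 that were lower in db. The choice therefore rests on the same db against non-db difference in the same pools, and the differences given here describe the data and were not tested. The study named a smaller part of these lists as significantly changed, and none of the 4 circRNAs is in that part.

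The arrays held RNA of bone marrow neutrophils from BKS.Cg-Dock7m +/+ Leprdb/J mice. The db mice were Lepr db/db, which impairs leptin receptor signalling, and the non-db mice were Lepr db/+ and so carry 1 copy of the same allele. The strain name also holds the Dock7m allele, whose copies in each group the study does not state. All mice were male and 8 weeks old, and their neutrophils were taken with anti-Ly-6G beads. Each of the 6 pools combined 3 mice. Pools 1 to 3 were non-db and pools 4 to 6 were db. RNA was treated with RNase R, which degrades linear RNA, and hybridized in 1 colour (Cy3) to 1 Arraystar mouse circRNA array per pool. In such bulk samples, fewer cells of a type and less RNA per cell cannot be told apart.

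A circRNA forms when the end of an exon is joined back to the start of the same or an earlier exon, which closes the RNA into a ring. Protein phosphatases remove phosphate groups that kinases add, and they gain their targets through regulatory subunits and anchoring proteins. Neutrophils depend on such switches for migration, degranulation and the oxidative burst. Ppm1a encodes a metal-dependent serine/threonine phosphatase that acts on stress kinases and SMAD proteins. Ppp2r3a encodes a B'' regulatory subunit of protein phosphatase type 2A. Akap11 encodes an anchoring protein that holds protein kinase A together with a type 1 phosphatase and glycogen synthase kinase 3. Plcl2 encodes a relative of phospholipase C without enzyme activity, which binds inositol trisphosphate and phosphatases. The array measures the ring and not the linear mRNA or the protein. Of its 50 linear transcript probes, 44 could be given a gene symbol, and 0 of those matched any of these host genes.

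The circRNAs of Ppm1a (mmu_circRNA_25314, chromosome 12, probe ASCRP4008554), Akap11 (mmu_circRNA_27842, chromosome 14, probe ASCRP4000542) and Plcl2 (mmu_circRNA_016423, chromosome 17, probe ASCRP4008184) are listed as exonic. That of Ppp2r3a (mmu_circRNA_018555, chromosome 9, probe ASCRP4001397) is listed as antisense, so it comes from the strand opposite to the gene. Each listed fold matched 1 probe. The sequences of the rings and of the probes were not analysed here. Promoters are shown instead, since an exonic circRNA is cut from a transcript that starts at its host's promoter. Promoter windows from RefSeq (build GRCm38.p6) were matched for Ppm1a, Ppp2r3a and Akap11. This reason does not hold for the antisense circRNA of Ppp2r3a, although the windows of that gene were searched as well. The 250 bases before the start of Ppm1a (chr12:72760961-72761210, plus strand) and of the upstream start of Akap11 (chr14:78536861-78537110, minus strand) are printed because they held a searched motif. Capitals mark the cyclic AMP response element TGACGTCA in Ppm1a and the E-box CACGTG in Akap11.
Ppm1a: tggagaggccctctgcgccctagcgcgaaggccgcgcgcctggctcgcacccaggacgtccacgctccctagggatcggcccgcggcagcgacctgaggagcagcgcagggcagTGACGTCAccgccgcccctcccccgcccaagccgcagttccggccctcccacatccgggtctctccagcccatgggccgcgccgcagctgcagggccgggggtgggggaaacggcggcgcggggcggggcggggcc
Akap11: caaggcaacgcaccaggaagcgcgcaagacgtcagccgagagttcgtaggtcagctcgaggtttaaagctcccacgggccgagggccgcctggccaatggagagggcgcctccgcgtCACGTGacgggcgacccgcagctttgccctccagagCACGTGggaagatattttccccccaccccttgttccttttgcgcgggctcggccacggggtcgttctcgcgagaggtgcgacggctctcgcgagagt

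The motifs were chosen after these sequences were read, were searched on both strands and do not overlap each other. The cyclic AMP response element lay 136 to 129 bases before the Ppm1a start, and 1.55% of 32851 mouse promoter windows of the same length held it. The E-boxes lay 133 to 128 and 97 to 92 bases before the Akap11 start, and 6.02% of windows held at least 1. The PU.1 motif GAGGAAGT (2.44% of windows) and the C/EBP motif TTGCGCAA (0.164%) were not found in the 5 windows of these 3 genes, which says only that these letters are not there.

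Of 14236 circRNA probes, 12722 were kept, namely those with a spot flagged well above background in 3 or more of the 5 complete scanner files. All 4 circRNAs passed, and 22 of their 22 spots in the scanner files were well above background in both groups, with 0 saturated. The scanner file of pool 1 stops early and holds 2199 circRNA probes, so the log2 values that the authors deposited were used for all pools. Pools 1 and 4 shared a scan session, as did the other 4 pools. Pool 4 stood apart, with the highest signal for 192 of the 206 circRNAs listed as higher and the lowest for 178 of the 247 listed as lower. Of 28 marker genes of neutrophils and other bone marrow cells, 0 had a named probe, so the labelled cell type could not be checked on these arrays.

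The Ppm1a circRNA, from the gene of the phosphatase itself, was lower in every db pool. Its log2 signal was 6.38, 6.43 and 6.24 in non-db pools 1, 2 and 3. It was 5.37, 5.80 and 5.85 in db pools 4, 5 and 6. Every db pool lay under every non-db pool, with a gap of 0.39 log2 units between the nearest, and pool 4 was the lowest. The non-db pools kept within 0.19 log2 units, the narrowest non-db range of the 4 circRNAs. The db pools averaged 5.68 ± 0.26 (SD, n = 3) and the non-db pools 6.35 ± 0.10 (SD, n = 3). The log2 difference was -0.68 (standard error 0.16), or 1.598-fold lower. Without pool 4 it was -0.52 and no longer past 1.5-fold. The median spot signal was 2.44 to 5.29 times the local background.

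The scanner's own values of the Ppm1a spot, before any scaling between arrays, showed the same order of groups. The processed signal was 58.1, 46.5 and 55.2 in pools 1, 2 and 3. In pools 4, 5 and 6 it was 20.4, 30.9 and 40.5. The file of pool 1 holds this spot, so all 6 pools could be scaled to the 75th percentile of the 2199 probes present on every array. On that scale the log2 difference was -1.02 and the groups again did not overlap. In pools 2 to 6 after normexp background correction, which adds an offset, and quantile normalization, it was -0.42 and under 1.5-fold, also without overlap.

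The Akap11 circRNA, from the gene of the kinase and phosphatase anchor, was likewise lower in every db pool. Its log2 signal was 7.29, 6.64 and 6.59 in non-db pools 1, 2 and 3. It was 5.83, 5.76 and 6.13 in db pools 4, 5 and 6. The groups did not overlap, and pool 1 was the highest and pool 5 the lowest. The db mean was 5.91 ± 0.20 (SD, n = 3) and the non-db mean 6.84 ± 0.39 (SD, n = 3), a log2 difference of -0.93 (standard error 0.25) or 1.91-fold. This was the largest of the 4 in the deposited log2 means, by a margin within the standard errors, and other settings gave another order. With each pool left out in turn, the difference lay between -1.06 and -0.71. In the scanner files of pools 2 to 6, the processed signal was 64.2 and 62.1 in pools 2 and 3. It was 34.2, 33.0 and 55.6 in pools 4, 5 and 6, so pool 6 lay close to the non-db pools before scaling. After scaling to the 75th percentile, quantile normalization, or normexp background correction with quantile normalization, every db pool was under both non-db pools. Normexp, which adds an offset, gave a smaller difference of -0.48 for this spot, and the reason was not tested. The median signal of the spot was 3.69 to 6.07 times its background.

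The Plcl2 circRNA, from the gene of the inactive phospholipase, was also lower in every db pool, by a smaller gap. Its log2 signal was 10.66, 11.15 and 10.47 in non-db pools 1, 2 and 3. It was 9.78, 9.57 and 10.19 in db pools 4, 5 and 6. The groups did not overlap, but pool 6 lay only 0.28 log2 units under pool 3. Mean signal was 9.85 ± 0.32 (SD, n = 3) in the db pools against 10.76 ± 0.35 (SD, n = 3) in the others, a log2 difference of -0.91 (standard error 0.27) or 1.88-fold. The median spot signal was 56.7 to 154 times the background. With single pools left out the difference lay between -1.09 and -0.72, and within the 2 scan sessions it was -0.87 and -0.93.

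For Plcl2 the separation of the groups depended on the scaling. The processed signal was 2001, 1962 and 989 in pools 1, 2 and 3, and 743, 853 and 1434 in pools 4, 5 and 6. Pool 6 was thus above pool 3 before scaling. It was also above pool 3 after scaling to the 75th percentile (3.26 against 2.87 log2 units over that percentile) and after quantile normalization of the scanner values (10.20 against 10.17). After normexp with quantile normalization it was below (10.19 against 10.50). The group difference kept its direction in each of these.

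The Ppp2r3a circRNA, antisense to the gene of the phosphatase regulatory subunit, had another order of pools than the other 3. Its log2 signal was 10.34, 9.81 and 7.62 in non-db pools 1, 2 and 3. It was 8.27, 8.44 and 8.47 in db pools 4, 5 and 6. Non-db pools 1 and 2 were the highest of the 6, and non-db pool 3 was the lowest, so the db pools lay between them. The db pools kept within 0.19 log2 units, while the non-db pools spanned 2.72. On average the signal was 8.39 ± 0.10 (SD, n = 3) in db pools against 9.26 ± 1.44 (SD, n = 3) in non-db pools, a log2 difference of -0.86 (standard error 0.84) or 1.82-fold. The spread within groups, a pooled SD of 1.02, was larger than that of 99.2% of the probes kept, against a median of 0.21.

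The direction of the Ppp2r3a difference rested on pools 1 and 2. Without pool 1 it was -0.32, without pool 2 -0.59 and without pool 3 -1.68. Without both pools 1 and 2 it was 0.77, with the db pools higher. Within the scan session of pools 1 and 4 it was -2.07, and within the session of the other 4 pools -0.26. The processed signal was 765 in pool 2 and 183 in pool 3, against 313, 413 and 384 in pools 4, 5 and 6. The scanner software flagged the spot in pool 2 as non-uniform, the only one of the 22 spots with such a flag, and 4 of the 14236 circRNA probes on that array carried one. The file of pool 1 does not reach this spot, so no flag could be read there. In scanner values with the flagged spot left out, the difference was 0.67 to 0.95, with pool 3 as the only non-db pool. With the flagged spot kept it was -0.31 to -0.22.

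**Figure D1:**
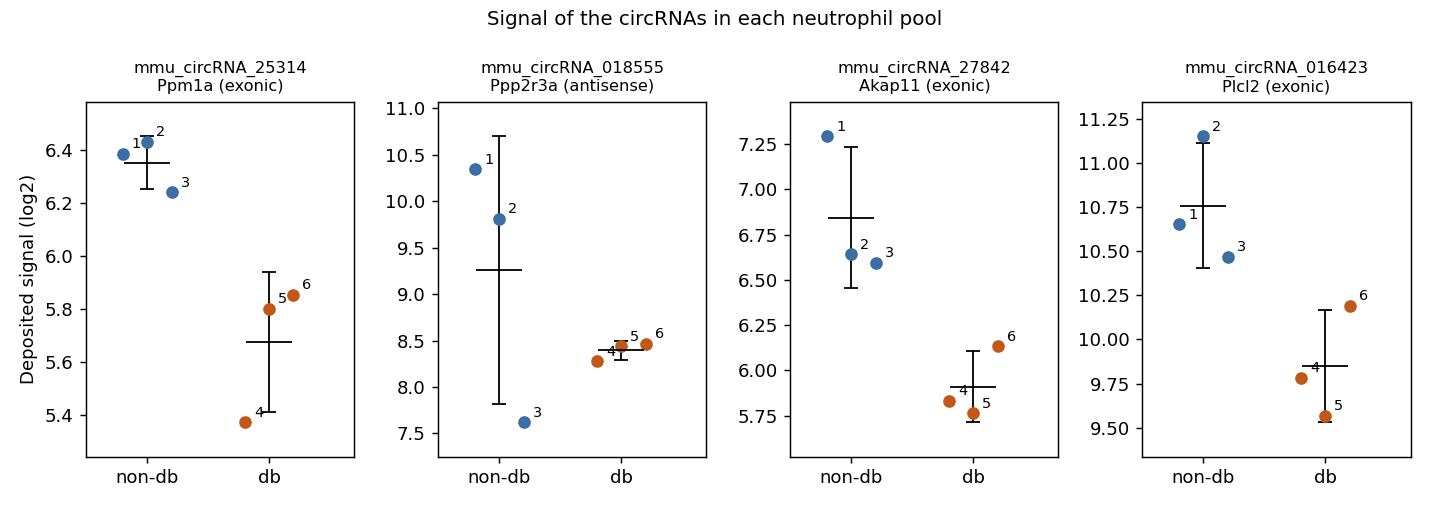
Deposited log2 signal (vertical axes, each with its own range that does not start at 0) of the 4 circRNAs in the non-db pools 1 to 3 and the db pools 4 to 6. Points are single pools with their numbers, horizontal bars are group means and vertical bars 1 SD (n = 3). The groups do not overlap for Ppm1a, Akap11 and Plcl2, while for Ppp2r3a the db pools lie between pools 1 and 2 at 10.34 and 9.81 and pool 3 at 7.62.

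Every db pool lay under every non-db pool for 3 of the 4 circRNAs. Among all probes kept this held for 341 (2.68%), and the reverse, every db pool above, for 504 (3.96%). Among the 247 circRNAs listed as lower, from which the 4 were taken, it held for 30. A mean signal more than 1.5-fold lower in db was found for 246 (1.93%) and a higher one for 206 (1.62%). The circRNAs were chosen by this contrast, so nothing follows from their count against these shares. At the threshold of the list, the last circRNAs inside were mmu_circRNA_29992 (Bach1) at 1.50004-fold and mmu_circRNA_37324 (Usp24) at 1.50002-fold lower, and the first probe outside, ASCRP4005023, was at 1.49939-fold. Ppm1a, at 1.598-fold, was the nearest of the 4 to it.

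**Figure D2:**
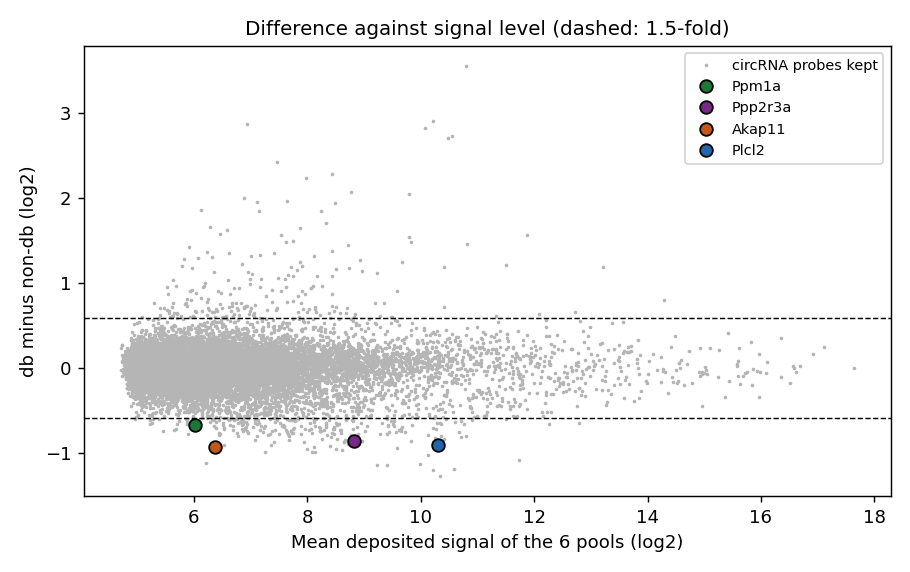
Log2 difference, db minus non-db (vertical axis), against the mean deposited log2 signal of the 6 pools (horizontal axis) for the 12722 probes kept (grey) and the 4 circRNAs (coloured). Dashed lines mark 1.5-fold. The 4 differences lie between -0.93 and -0.68, past the lower dashed line.

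Pool 4 led the differences on the list of lower circRNAs as a whole, but not those of Akap11 and Plcl2. It did lead that of Ppm1a, and for Ppp2r3a every db pool lay above non-db pool 3. Relative to the non-db mean, pool 4 differed by -0.98 (Ppm1a), -0.98 (Ppp2r3a), -1.01 (Akap11) and -0.98 (Plcl2) log2 units. In pool 5 the values were -0.55, -0.82, -1.08 and -1.19, and in pool 6 they were -0.50, -0.79, -0.71 and -0.57, for the same circRNAs in the same order. Over the 247 listed circRNAs the medians were -1.18, -0.60 and -0.26 for pools 4, 5 and 6. The lowest signal lay in pool 4 for 1 of the 4 circRNAs (Ppm1a), in pool 5 for Akap11 and Plcl2, and in non-db pool 3 for Ppp2r3a. Over the 247 listed circRNAs it lay in pool 4 for 178, in pool 5 for 28 and in pool 3 for 10. Without pool 4 the difference stayed past 1.5-fold for Ppp2r3a (-0.80), Akap11 (-0.90) and Plcl2 (-0.88). For Ppm1a it did not (-0.52). Among the 12722 probes kept, 102 were more than 1.5-fold lower in db without pool 4. The related circRNA of Gsk3b, described below, also stayed past 1.5-fold without pool 4 (-0.71). Whether the 4 circRNAs depart from the list was not tested.

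**Figure D3:**
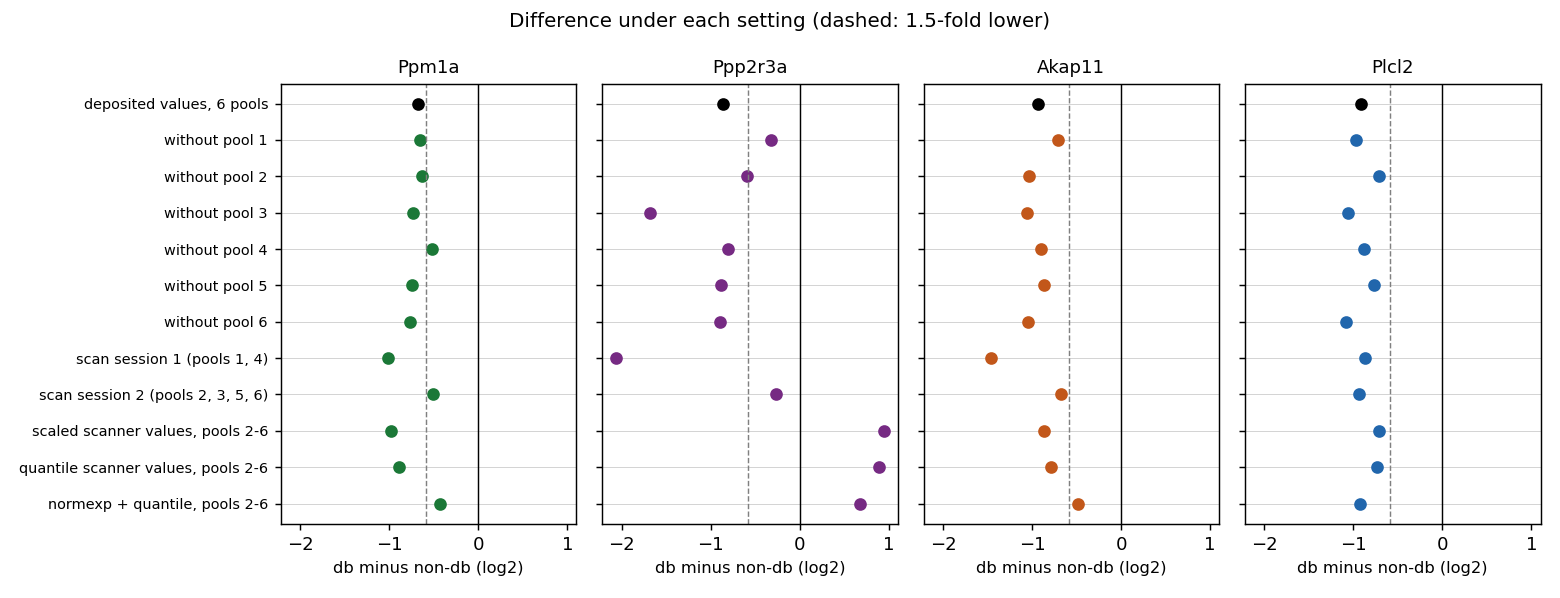
Log2 difference, db minus non-db (horizontal axes), of the circRNA of each gene under 12 settings (rows), with the deposited values of 6 pools in black. The dashed line marks 1.5-fold lower and the solid line 0. Ppm1a, Akap11 and Plcl2 stay on the lower side in each setting shown, which their groups without overlap fix in advance for the deposited values. Ppp2r3a moves to 0.67 to 0.95 in the scanner values, where pool 1 and the flagged spot of pool 2 are missing.

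Over the 6 pools, the signals of Ppm1a, Akap11 and Plcl2 had Pearson correlations of 0.79 to 0.86 with each other. Those of Ppp2r3a with the other 3 were 0.56 to 0.67. The 6 points share the group difference by which the circRNAs were chosen, and are given as a description. Within the non-db pools the order differed, with Akap11 highest in pool 1 and Ppm1a and Plcl2 highest in pool 2. Pool 3 was the lowest non-db pool for all 4.

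The probes with the most similar pattern over the 6 pools differed for each of them. For Akap11 they were the unnamed probes ASCRP4008716 (r = 0.98) and ASCRP4000521 (r = 0.98) and mmu_circRNA_22698 of Rap1b, a small GTPase of integrin signalling (r = 0.97). For Plcl2 they were mmu_circRNA_23592 of Dnah2, a dynein heavy chain (r = 0.99), and the unnamed ASCRP4008426 and ASCRP4004996 (r = 0.97 each). For Ppm1a they were the unnamed probes ASCRP4004640, ASCRP4000308 and ASCRP4005792 (r = 0.97 each), whose log2 differences were smaller, at -0.23, -0.33 and -0.19. For Ppp2r3a they were ASCRP4001756 (r = 0.998), an unnamed probe that ranged only from 4.89 to 5.16, mmu_circRNA_39468 of Wbscr17 (r = 0.997) and mmu_circRNA_21739 of Ahi1, a ciliary protein gene (r = 0.996). A correlation over 0.9 was found for 33 (Plcl2), 46 (Akap11), 53 (Ppm1a) and 128 (Ppp2r3a) of 12721 other probes, with n = 6 pools for each. With 6 pools and this many probes, the highest correlations can be this high for unrelated probes. Shared regulation was not tested.

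The non-db pattern of the Ppp2r3a circRNA was uncommon but not confined to it. Pools 1 and 2 both lay more than 2 log2 units above pool 3 for 12 of the 12722 probes kept, a limit set after the values were seen. The same with pool 1 as the low pool held for 1 probe, and with pool 2 as the low pool for 0. Of the 12, 7 are on the study's lists. The circRNAs of Wbscr17 (11.96, 11.19 and 8.77 in pools 1, 2 and 3), Ahi1 (12.02, 11.32 and 9.12) and Rint1 were, like that of Ppp2r3a, listed as lower in db. Those of Ubr4 (6.64, 6.58 and 4.32), Ciapin1 (6.55, 6.51 and 4.06) and Zfp318 (7.64, 7.52 and 4.24) were listed as higher. Pool 3 lay below every db pool for all 12, and the differences between the groups ran from -1.02 to 1.11. The flag for a non-uniform spot in pool 2 was present for 1 of the 12, Ppp2r3a itself.

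A further 9 listed circRNAs of related genes are given as context, from families of phosphatases, anchoring proteins, phospholipases C and their partners that were picked with the lists known. Of these, 6 were lower and 3 higher in db, which the lists themselves fix. The lower ones came from Gsk3b, the gene of a kinase that Akap11 binds (-0.77), Akap9, a Golgi and centrosome anchor (-0.65 and -0.61), Ptpn13, a tyrosine phosphatase (-0.63), and Ppp1r12a, the myosin phosphatase targeting subunit (-0.61 and -0.59). The higher ones came from Ptprt, a receptor tyrosine phosphatase (1.096), Mtmr1, a lipid phosphatase (0.97), and Plcb1, an active phospholipase C (0.64). All values are log2 differences of deposited signal.

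Most of these related circRNAs depended on single pools. Pool 4 was the lowest pool for each of the 6 lower ones and the highest for each of the 3 higher ones. This was common on the lists. Pool 4 was the lowest for 178 of all 247 circRNAs listed as lower and the highest for 192 of all 206 listed as higher. Without pool 4, 1 of the 6 stayed past 1.5-fold lower, that of Gsk3b at -0.71, and the other 5 lay between -0.45 and -0.21. Without pool 3, the Gsk3b difference was -0.43 and under 1.5-fold, and those of the Ppp1r12a circRNAs were -0.31 and -0.26. Of the higher ones, Ptprt stayed past 1.5-fold without pool 4 (0.75), while Mtmr1 (0.46) and Plcb1 (0.28) did not. Of the 9, the groups did not overlap for Gsk3b alone. Its log2 signal was 7.54, 7.24 and 8.43 in non-db pools 1, 2 and 3 and 6.83, 7.11 and 6.96 in db pools 4, 5 and 6. The highest pool of the 6 lower ones also varied, being pool 3 for Gsk3b and both Ppp1r12a circRNAs, pool 2 for Ptpn13 and mmu_circRNA_38037 of Akap9, and pool 1 for mmu_circRNA_19355 of Akap9. The 2 circRNAs of Ppp1r12a, an exonic and a sense overlapping one, followed each other (7.95, 7.51, 8.63, 7.10, 7.60 and 7.56 against 7.63, 7.11, 8.35, 6.69, 7.39 and 7.24 in pools 1 to 6), whereas those of Akap9 did not (7.30, 8.68 and 7.56 against 7.89, 6.16 and 6.75 in the non-db pools). The listed fold of the sense overlapping circRNA of Ppp1r12a matched 2 probes, and the listed p-value settled which one was used.

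**Figure D4:**
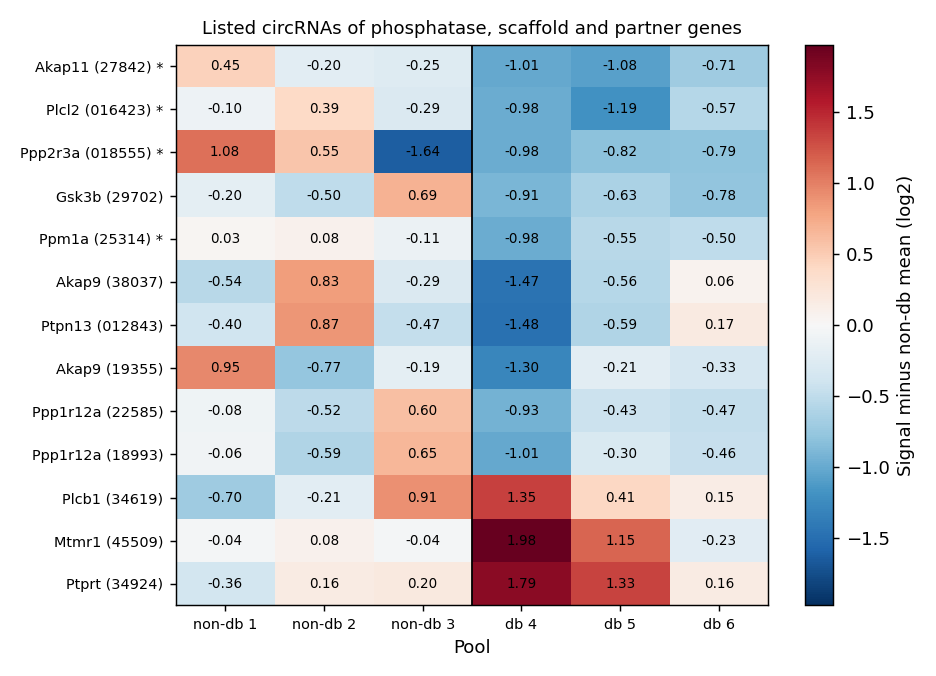
Log2 signal of each pool minus the mean of the 3 non-db pools, for 13 listed circRNAs of phosphatase, scaffold and partner genes (rows, sorted by group difference, the 4 genes marked *, circRNA numbers in brackets) in 6 pools (columns). Blue is lower and red is higher. Pool 4 is the lowest or the highest pool in each of the 9 rows without *, as it is for most listed circRNAs, while Akap11 and Plcl2 are lowest in pool 5.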

How the data were processed

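circRNA signal of 6 pools (3 db, 3 non-db) was analysed, with groups and pool numbers from the sample titles. The labels and file headers name Agilent Feature Extraction 11.0.1.1, and the submitters' processing notes also name limma. The authors deposited 1 scanner file per pool with spot intensity, unscaled between arrays. They also deposited log2 values for all pools, normalized with a method not given in the sources used here, and their sorted values nearly coincide between pools, which removes differences in total signal. The array design names build mm9 and the circRNAs have no coordinates here.

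The members and gene lists were chosen with earlier results of these data known. Probes were named by matching published folds within 0.001%, so a fold that equals a published one follows from the naming. Ties went to the probe whose paired t p-value, with pools paired in order, was nearest the listed p-value. Differences are of group means of log2 values, db minus non-db, against the study's threshold of 1.5-fold, with no covariate. No test was run, since the choice used this contrast. The number of arrays limits the precision. Spots flagged non-uniform were left out of settings on scanner values. Normexp (offset 50) took the median signal of each spot and its local background. The circRNAs named are the 4 members, the listed circRNAs of related gene families, the 3 probes closest to each member by Pearson correlation, those next to the threshold, and those of the Ppp2r3a pattern, which were chosen after their values were seen. Another related circRNA is not reported here and is left out of the counts of related circRNAs. Functions were tested on simulated data. Python 3.11.15, R 4.3.3, limma 3.58.1 and matplotlib 3.10.9 were used.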

Additional observations from a re-analysis of the deposited data

How the results depend on the processing

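The direction of the difference held for Ppm1a, Akap11 and Plcl2 under each of the 16, 15 and 16 alternatives run. Most of these could not have reversed it, because the groups of these circRNAs do not overlap in the deposited values. That holds for pools left out, single sessions, medians, arithmetic means and the session block. Only the settings on scanner values were free to change the direction. For Plcl2 none moved it by more than 1 pooled SD, and with single pools left out it ranged from -1.09 to -0.72. For Ppm1a it was -0.98 after scaling scanner values of pools 2 to 6 to the 75th percentile, -1.003 on detected probes, -0.89 after quantile normalization, -0.42 after normexp, -1.02 in scaled scanner values of all 6 pools and -1.01 within the session of pools 1 and 4 (left out singly, -0.77 to -0.52). For Akap11 it was -0.48 after normexp and -1.46 within that session (left out singly, -1.06 to -0.71). For Ppp2r3a it was -2.07 within that session and ranged from -1.68 to -0.32 with single pools left out. It reversed in scanner values without the flagged spot, to 0.95 after scaling, 0.91 on detected probes, 0.89 after quantile normalization and 0.67 after normexp, and to 0.77 without pools 1 and 2. These settings hold pool 3 as the only non-db pool. Leaving out pools 1 and 2 together, keeping the flagged spot and scaling with pool 1 were chosen after seeing the data.

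The counts of probes past 1.5-fold were 246 lower and 206 higher. In scanner values of pools 2 to 6, which lack non-db pool 1, they became 1262 and 321 with scaling. They were 1412 and 293 with scaling on detected probes and 831 and 590 with quantile normalization. After normexp with quantile normalization they were 219 and 156. In deposited values without pool 1 they were 359 and 251. Within the session of pools 1 and 4 they were 1425 and 1427, and within the other 165 and 110. With single pools left out they ranged from 102 to 485 lower and from 66 to 457 higher, lowest without pool 4 and highest without pool 6. The share that was higher, 45.6%, was 20.3% after scaling and 17.2% on detected probes. It was 41.5% after quantile normalization and 41.6% after normexp with quantile normalization. The cause was not tested. The scan session as a block left each difference as it was, since each session held equal numbers of both groups. The differences were not analysed as pairs, because the labels give the db and non-db pools no shared replicate numbers. A paired comparison in pool order served only to settle ties in naming.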
